A study of Mus musculus with 6 samples.

Results

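Carbonic anhydrases catalyse the reversible hydration of carbon dioxide to bicarbonate and a proton, and red blood cells carry large amounts of them for the transport of carbon dioxide from the tissues to the lungs. The family is split by location, with cytosolic enzymes (*Car1*, *Car2*, *Car7* and *Car13*), a mitochondrial enzyme (*Car5b*), a transmembrane enzyme with its active site outside the cell (*Car12*), and related proteins without enzymatic activity (*Car8* and *Car11*). *Car1* and *Car2* are switched on as progenitors commit to the red cell lineage, so the family touches directly on the erythroid output of megakaryocyte-erythroid progenitors (MEPs), the precursors of red cells and of platelet-forming megakaryocytes.

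The members followed here were 8 genes named from the family, matched by Ensembl identifier to the table of 12101 genes. Of these, 6 were in the table (*Car1*, *Car2*, *Car5b*, *Car8*, *Car12* and *Car13*), and *Car7* and *Car11* were absent from it. Each listed gene had more than 1 CPM (reads per 1000000 of the normalized library size) in at least 2 libraries, and levels below that filter were not analysed here.

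RNA was sequenced from MEPs sorted from the bone marrow of adult *Nanog*-tg mice of the CD-1 strain, with 3 libraries from mice given doxycycline (dox) in the drinking water for 5 days and 3 from untreated mice. All mice carried the same pair of transgenes, the M2-rtTA activator at the *Rosa26* locus and a dox-responsive *Nanog* cDNA at the *Col1a1* locus, so that dox acted in the whole animal and not in blood cells alone. A group given dox without the *Nanog* transgene was not analysed here, and effects of dox and of *Nanog* cannot be told apart. Libraries held between 11264803 and 16153600 reads on listed genes, and 1 read was worth between 0.0642 and 0.0910 CPM. *Nanog* had 17062, 19609 and 15959 reads in dox-treated replicates 1, 2 and 3 and 9, 13 and 1 reads in the untreated ones, as their labels state. Dox-treated replicate 3 stood apart from the other dox-treated libraries, at -14.8 on the first principal component where replicates 1 and 2 lay at -57.5 and -56.3 and the untreated libraries between 35.1 and 54.2, and results are therefore also given without it. Erythroid markers were present (13 of 14 listed, with summed levels of 3247 to 4344 CPM with dox and 3862 to 4093 CPM without). The most abundant of them, the water channel *Aqp1*, was at 1505 to 1973 CPM with dox and 1080 to 1285 CPM without, and the other 12 summed to 1691 to 2371 CPM with dox and 2577 to 3013 CPM without, so that these sums did not overlap. At the same time all 12 granulocyte-monocyte markers were also detected, at 510.6 to 750.1 CPM with dox and 2370 to 5470 CPM without. Of the 13 erythroid markers 1 (*Ermap*) was called lower with dox, as were 9 of the 12 granulocyte-monocyte markers (limma). No marker of either list was called higher, where 3.18% of all genes tested were called lower and 4.59% higher. At an unadjusted p under 0.05, erythroid markers went both ways, with 4 lower and 3 higher, and 12 granulocyte-monocyte markers were lower and 0 higher, where 13.6% of all genes tested were lower and 15.6% higher. In such bulk libraries fewer cells of a type and less RNA per cell cannot be told apart.

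Because the catalytic members share an active site, its coding sequence is shown first for the 5 listed enzymes. The zinc ion of the active site is held by 3 histidines. The following stretches are 45 bases of the coding strand, 5′ to 3′, around the codons for the first and the second of them, which are in capitals, from the transcript of each enzyme on NCBIM37 (mm9).
Car1: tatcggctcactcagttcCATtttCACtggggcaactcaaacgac
Car2: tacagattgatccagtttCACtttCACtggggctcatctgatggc
Car13: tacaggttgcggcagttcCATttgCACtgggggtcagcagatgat
Car5b: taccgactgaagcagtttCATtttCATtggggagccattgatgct
Car12: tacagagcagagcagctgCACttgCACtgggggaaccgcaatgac
In all 5 genes both codons in capitals, CAT or CAC, encode histidine, as did the codon of the third ligand. The stretches lie at chr3:14776263-14776307 on the minus strand (*Car1*, exon 3 of 7), chr3:14895051-14895095 on the plus strand (*Car2*, exon 3 of 7), chr3:14650688-14650732 on the plus strand (*Car13*, exon 3 of 7), chrX:160429328-160429372 on the minus strand (*Car5b*, exon 4 of 8) and chr9:66595436-66595480 on the plus strand (*Car12*, exon 4 of 11).

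The closest pair over aligned coding bases was *Car1* and *Car13*, identical at 64.6% of 783, followed by *Car1* and *Car2* at 62.3% of 777 and *Car2* and *Car13* at 61.1% of 780. *Car8* shared between 45.9% and 53.1% with the other members. The longest run of identical bases between transcripts of any pair was 30 bases, for *Car2* and *Car13*. No annotated gene of the table overlapped a member.

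Over the family, dox was accompanied by a rise of a pair of weakly expressed members, *Car8* and *Car13*, and by no called change of the abundant *Car1* and *Car2*. With limma over the 12088 genes tested and Benjamini-Hochberg adjustment, 2 of the 6 members were higher at an adjusted p under 0.05 and 0 were lower, against 4.59% of all genes tested higher and 3.18% lower. At an unadjusted p under 0.05, 3 members were higher and 0 lower, against 15.6% and 13.6% of all genes tested. The median log2 fold change was 0.43 over the 6 members and -0.03 over all genes tested. For 3 members (*Car5b*, *Car8* and *Car13*) all dox-treated values lay above all untreated values, a separation seen for 17.7% of all genes tested, and for 0 members it was the other way round, against 18.2% of genes. *Car5b* and *Car8* reached 1 CPM only in the dox-treated libraries and so passed the filter on low values only through the group in which they were high. Members are few and were not drawn at random, and these shares are given for description.

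**Figure D1:**
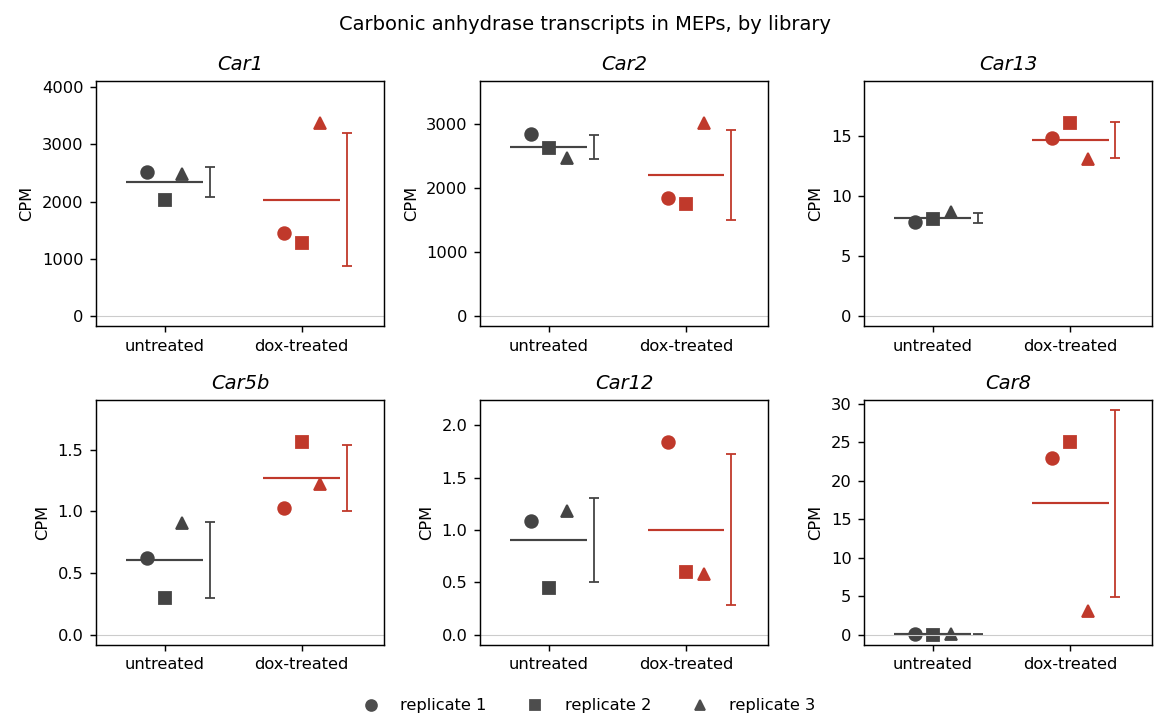
Level of each listed carbonic anhydrase in CPM (vertical axes, each with its own scale) for untreated (grey) and dox-treated (red) libraries, with points for single libraries, horizontal lines for means and bars for the SD of 3 libraries. *Car13*, *Car8* and *Car5b*, the last close to the limit of detection, separate the groups. For *Car1* and *Car2* dox-treated replicate 3 (triangle) lies above every untreated library while replicates 1 and 2 lie below all of them.

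*Car1* and *Car2*, the cytosolic enzymes of the red cell, made up almost all of the family. Between 98.6% and 99.8% of the reads of the 6 members fell on this pair in each library, and together they took from 0.329% to 0.615% of all reads on listed genes. *Car2* ranked between 13 and 22 among the 12101 genes by CPM and *Car1* between 10 and 49, depending on the library.

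*Car1* (ENSMUSG00000027556, chr3:14766217-14778459, minus strand) had 1460, 1280 and 3359 CPM in dox-treated replicates 1, 2 and 3 and 2506, 2034 and 2471 CPM in the untreated replicates. Replicates 1 and 2 of the dox-treated group were thus the lowest of the 6 libraries and replicate 3 was the highest. The group means were 2033 ± 1152 CPM with dox and 2337 ± 263.0 CPM in untreated MEPs (SD, n = 3 each). The log2 fold change was -0.33 (standard error 0.38, 95% interval -1.26 to 0.59, adjusted p = 0.58, limma), and the two-sided exact permutation test gave p = 0.4, where 0.1 is the smallest value that 3 libraries against 3 allow. The difference was smaller than the spread between dox-treated libraries, and the interval includes a fall to 0.419 of the untreated level as well as a rise to 1.501 times that level.

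*Car2* (ENSMUSG00000027562, chr3:14886426-14900769, plus strand) had 1847, 1758 and 3014 CPM in dox-treated replicates 1, 2 and 3 and 2850, 2625 and 2471 CPM in the untreated replicates. As for *Car1*, dox-treated replicates 1 and 2 were the lowest of the 6 libraries and dox-treated replicate 3 was the highest. Means were 2207 ± 700.6 CPM with dox and 2649 ± 190.3 CPM in untreated MEPs (SD, n = 3 each), for a log2 fold change of -0.31 (standard error 0.23, 95% interval -0.86 to 0.25, adjusted p = 0.40, limma, two-sided exact permutation p = 0.4).

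For both genes the outcome turned on a single library. Without dox-treated replicate 3 the log2 fold change was -0.77 for *Car1* (adjusted p = 0.022, limma) and -0.55 for *Car2* (adjusted p = 0.023, limma), and both were then called lower, in a fit that called 14% of all genes tested lower and 14.9% higher. With array quality weights, which reduce the weight of libraries far from their group, the values were -0.76 (adjusted p = 0.020, limma) and -0.50 (adjusted p = 0.020, limma), with 21.5% of all genes called lower. With any other single library left out the adjusted p of *Car1* was at least 0.63 and that of *Car2* at least 0.47 (limma). The summed erythroid markers were also highest in replicate 3 among the dox-treated libraries, at 3281, 3247 and 4344 CPM in replicates 1, 2 and 3 against 3870, 4093 and 3862 CPM in the untreated ones. Without *Aqp1* they were at 1691, 1742 and 2371 CPM with dox, all below the untreated 2655, 3013 and 2577 CPM, and *Nanog* was at 1256, 1460 and 1024 CPM in the dox-treated replicates. Their part in the result was not tested.

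The balance between the pair did not differ between groups beyond the spread of libraries. *Car2* had 1.27, 1.37 and 0.897 reads for each *Car1* read in dox-treated replicates 1, 2 and 3. In untreated replicates 1 and 2 this ratio was 1.137 and 1.29, and in untreated replicate 3 the pair had 27165 and 27164 reads. The log2 ratio averaged 0.21 ± 0.33 with dox and 0.18 ± 0.18 in untreated MEPs (SD, n = 3 each), a difference of 0.03 (two-sided exact permutation p = 1, also after adjustment over 3 ratios). The groups overlapped, and the ratio was lowest in dox-treated replicate 3 and next lowest in untreated replicate 3.

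*Car13*, a cytosolic enzyme encoded beside *Car1* and *Car2*, was the member with the tightest change. It had 14.8, 16.0 and 13.03 CPM in dox-treated replicates 1, 2 and 3 (201, 215 and 203 reads) and 7.85, 8.05 and 8.64 CPM in the untreated replicates (101, 109 and 95 reads). Every dox-treated library, replicate 3 included, was above every untreated one. The mean rose 1.79-fold, from 8.18 ± 0.410 to 14.6 ± 1.498 CPM (SD, n = 3 each). On the log2 scale the fold change was 0.83 (standard error 0.12, 95% interval 0.54 to 1.12, adjusted p = 0.018, limma) and the two-sided exact permutation p was 0.1. The log2 fold change was 0.91 without dox-treated replicate 3 (adjusted p = 0.0083, limma). With each of the other 5 libraries left out in turn it stayed between 0.76 and 0.87, but the adjusted p was between 0.066 and 0.082 (limma) and the call was lost, as it was in a fit blocked on the replicate number (adjusted p = 0.11, limma), which called 0.438% of all genes higher. *Car13* (ENSMUSG00000027555) lies at chr3:14641727-14663002 on the plus strand.

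*Car8*, whose product binds the type 1 inositol trisphosphate receptor and is best known from the cerebellum, went from almost no reads to a level that still ranked between 7026 and 10240 among the 12101 genes. It had 312, 336 and 49 reads in dox-treated replicates 1, 2 and 3 and 1, 0 and 1 reads in the untreated replicates. In CPM this was 23.0, 25.01 and 3.14 with dox, and every untreated value was under the floor of 3 reads, which was worth between 0.222 and 0.273 CPM in those libraries. All dox-treated libraries were above all untreated ones, and dox-treated replicate 3 was far below replicates 1 and 2. The ratio of reads per normalized library size was 306-fold over the pooled groups, with a 95% exact interval of 84.4 to 2531 from 697 against 2 reads. That interval covers counting error only, and PCR copies of a molecule were not told apart. The limma log2 fold change, 7.19 (standard error 0.94, adjusted p = 0.016), depends on the 0.5 reads added to each value, being 5.88 with 2 reads and 8.26 with 0.1 reads added, and the exact permutation p was 0.1 (two-sided).

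The call of *Car8* held without dox-treated replicate 3 (log2 fold change 8.16, adjusted p = 0.0052, limma). It was lost narrowly with any other library left out, with an adjusted p between 0.051 and 0.060 (limma), in the blocked fit (adjusted p = 0.071, limma) and with voom precision weights (adjusted p = 0.078, limma), which called 5.09% of all genes higher. The 8 megakaryocyte markers of 10 that were in the table also stood higher in dox-treated replicates 1 and 2, with summed levels of 431.3, 422.2 and 126.3 CPM in the dox-treated replicates and 123.3, 86.0 and 124.1 CPM in the untreated ones. *Itga2b* alone was at 319.0 and 314.1 CPM in dox-treated replicates 1 and 2, and without it the other 7 summed to 112.3, 108.1 and 59.5 CPM with dox and 85.8, 61.9 and 84.9 CPM without, and overlapped. The 6 mast cell markers of 11 in the table summed to 759.6, 671.9 and 560.9 CPM with dox and 555.7, 401.9 and 632.0 CPM without, and the sums overlapped. The most abundant, *Kit*, was lower with dox in mean, and the other 5 summed to 439.8, 367.5 and 238.3 CPM with dox and 112.4, 74.5 and 146.5 CPM without, with no overlap. Sums without the most abundant marker of a list were made after seeing the data. Of the 6 mast cell markers 4 were higher and 2 lower in mean log2 level. Of the 8 megakaryocyte markers 2 were called higher (*Gp9* and *Gp1ba*) and 1 lower (*Vwf*). Of the 6 mast cell markers 3 were called higher (*Cpa3*, *Ms4a2* and *Slc18a2*) and 0 lower. Over all genes tested 4.59% were called higher and 3.18% lower (limma). No marker of either list that was in the table was at 0 reads in any library, and their part in the rise of *Car8* was not tested. *Car8* (ENSMUSG00000041261) spans chr4:8070514-8166188 on the minus strand.

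*Car5b*, the mitochondrial enzyme, which supplies bicarbonate to carboxylases there, was close to the limit of detection. It had 14, 21 and 19 reads in dox-treated replicates 1, 2 and 3 and 8, 4 and 10 in the untreated replicates. The groups did not overlap, at 1.27 ± 0.270 CPM with dox and 0.609 ± 0.307 CPM in untreated MEPs (SD, n = 3 each). Its log2 fold change was 1.12 (95% interval 0.14 to 2.10, adjusted p = 0.13, limma, two-sided exact permutation p = 0.1), and it did not pass the threshold under any of the 16 alternatives tried. *Car5b* (ENSMUSG00000031373) lies at chrX:160414754-160465929 on the minus strand.

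*Car12*, the transmembrane enzyme, had 25, 8 and 9 reads in dox-treated replicates 1, 2 and 3 and 14, 6 and 13 reads in untreated replicates 1, 2 and 3. The groups overlapped, with 1.005 ± 0.724 CPM with dox and 0.905 ± 0.402 CPM in untreated MEPs (SD, n = 3 each), and the log2 fold change was 0.04 (95% interval -1.35 to 1.43, adjusted p = 0.97, limma). A change was not detectable at this depth, and the sign turned when dox-treated replicate 1 or untreated replicate 2 was left out and after quantile normalization. *Car12* (ENSMUSG00000032373) lies at chr9:66561493-66614652 on the plus strand.

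**Figure D2:**
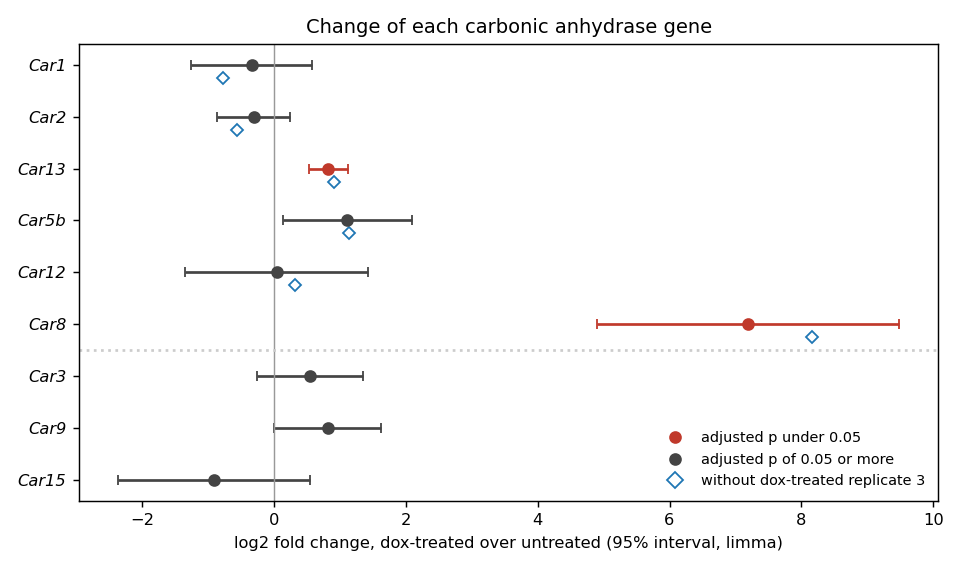
Log2 fold change of each carbonic anhydrase gene, dox-treated over untreated (horizontal axis), with points for all 6 libraries, bars for the 95% interval from limma, red for an adjusted p under 0.05, and open diamonds for the value of each member without dox-treated replicate 3; genes under the dotted line are family genes outside the 8 members. *Car8* (7.19) and *Car13* (0.83) are red, and leaving out dox-treated replicate 3 moves *Car1* from -0.33 to -0.77 and *Car2* from -0.31 to -0.55.

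Levels can be set against each other between genes only per length, and were divided by the length of the union of annotated exons. In untreated MEPs the order was *Car1* with 1981 ± 222.9 CPM per kb, *Car2* with 1481 ± 106.3, *Car13* with 3.56 ± 0.178, *Car12* with 0.199 ± 0.0887, *Car5b* with 0.0959 ± 0.0484 and *Car8* with 0.0146 ± 0.0128 (SD, n = 3 for each). *Car1* was above *Car2* per kb in 6 of 6 libraries, although *Car2* had more reads in 5 of 6. The untreated ranges of *Car12* and *Car5b* overlapped. With dox *Car1* stood at 1723 ± 976.0 CPM per kb, *Car2* at 1233 ± 391.6, *Car13* at 6.36 ± 0.652, *Car8* at 4.43 ± 3.14, *Car12* at 0.221 ± 0.160 and *Car5b* at 0.200 ± 0.0425 (SD, n = 3 for each). *Car8* was thus last of the 6 in untreated MEPs and stood after *Car13* with dox. It was below *Car13* in 3 of 3 dox-treated libraries, at 5.97, 6.50 and 0.817 against 6.44, 6.96 and 5.67 CPM per kb in replicates 1, 2 and 3. In the dox-treated group the neighbours *Car1* and *Car2*, *Car13* and *Car8*, and *Car12* and *Car5b* overlapped in range. The summed level of the 6 members was 2967 ± 1364 CPM per kb with dox and 3465 ± 263.1 without (two-sided exact permutation p = 0.4). Of that sum *Car8* held 0.261%, 0.312% and 0.0180% in dox-treated replicates 1, 2 and 3 and at most 0.000679% in an untreated library (two-sided exact permutation p = 0.1).

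*Car13*, *Car1*, *Car3* and *Car2* lie in that order within 259.0 kb of chromosome 3, with *Car1* on the minus strand and the others on the plus strand. *Car13* ends 103.2 kb before *Car1*, which ends 85.1 kb before *Car3*, and *Car3* ends 14.1 kb before *Car2*. Within the cluster *Car13* was called and *Car1*, *Car3* and *Car2* were not, and the difference between them was read from ratios of reads. *Car13* had 0.0101, 0.0125 and 0.00388 reads for each *Car1* read in dox-treated replicates 1, 2 and 3 and 0.00313, 0.00396 and 0.00350 in the untreated replicates, so that dox-treated replicate 3 lay within the untreated range. The log2 ratio of *Car13* to *Car1* was higher by 1.16 with dox (two-sided exact permutation p = 0.2, 0.3 after adjustment over 3 ratios). For *Car13* to *Car2* the groups did not overlap and the log2 ratio was higher by 1.13 (two-sided exact permutation p = 0.1, 0.3 after adjustment). Without dox-treated replicate 3 the differences were 1.68 for *Car13* to *Car1* and 1.46 for *Car13* to *Car2*. Without dox-treated replicate 2 they were 0.83 and 0.92. These ratios are within libraries and do not depend on how libraries were scaled.

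*Car3*, a cytosolic enzyme best known from muscle and fat, had 47, 53 and 78 reads in dox-treated replicates 1, 2 and 3 and 57, 34 and 21 in the untreated ones (log2 fold change 0.55, adjusted p = 0.31, limma). Of 4 listed genes other than members within 500 kb of the cluster 0 were called by limma, with log2 fold changes from -0.15 to 0.55 and 95% intervals that all included 0. The nearest one outside the cluster, on the side of *Car13*, was *1810022K09Rik* at 30.5 kb (log2 fold change -0.15, adjusted p = 0.70, limma), and no listed gene lay within 500 kb beyond *Car2*. Around *Car8* only *Rab2a*, at 296.6 kb (log2 fold change 0.23, adjusted p = 0.22, limma), and *Chd7*, at 451.4 kb (log2 fold change -0.88, adjusted p = 0.22, limma), were listed within 500 kb, both on the same side.

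**Figure D3:**
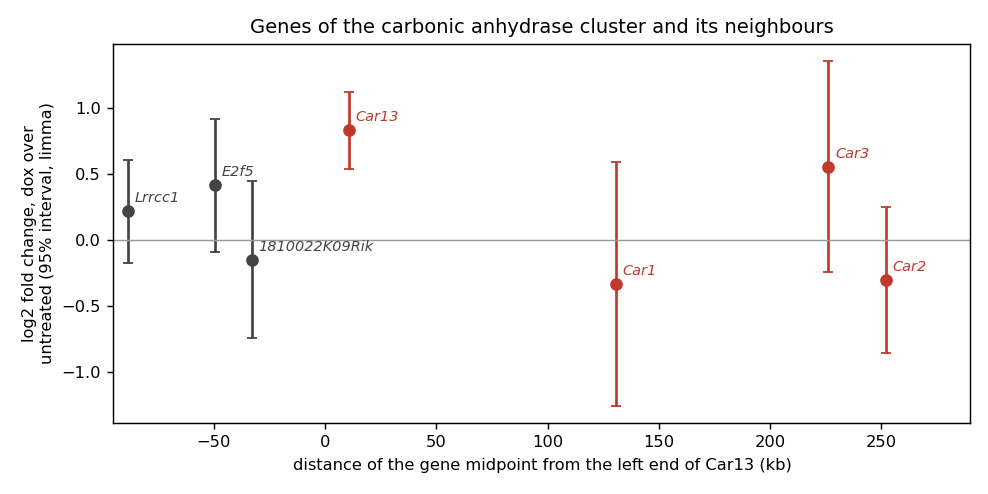
Log2 fold change, dox-treated over untreated, of the listed genes around the carbonic anhydrase cluster (vertical axis, points with 95% intervals from limma over 6 libraries) against the distance of each gene's midpoint from the left end of *Car13* in kb (horizontal axis), with carbonic anhydrases in red and other genes in grey. The interval of *Car13* (0.54 to 1.12) lies above 0, and those of *Car1* and *Car2* include it.

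Of 10 further carbonic anhydrase or carbonic anhydrase-like genes looked for, 3 were in the table (*Car3*, *Car9* and *Car15*), and 0 were called by limma, with 0 at an unadjusted p under 0.05. *Car9*, a transmembrane enzyme known for its induction by low oxygen, had 90, 73 and 63 reads in dox-treated replicates 1, 2 and 3 and 41, 26 and 47 in the untreated ones. Means were 5.37 ± 1.29 and 3.13 ± 1.18 CPM (SD, n = 3 each), and the groups overlapped (log2 fold change 0.81, adjusted p = 0.17, limma). *Car15* had between 7 and 32 reads in each library (log2 fold change -0.91, adjusted p = 0.35, limma).

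Transporters that carry bicarbonate, protons, water or carbon dioxide across membranes were read from a list of 40 genes, of which 21 were in the table and 20 were tested. The limma fit called 0 of them higher and 1 lower, against 4.59% and 3.18% of all genes tested, and the median log2 fold change was 0.07. At an unadjusted p under 0.05 stood 7 of the 20, against 29.2% of all genes tested. The groups did not overlap for 2 genes that were higher and 3 that were lower with dox, where 17.7% and 18.2% of all genes tested were so separated. The gene called, *Slc26a1*, encodes an anion exchanger for sulfate, oxalate and bicarbonate. It had 841, 620 and 1591 reads in dox-treated replicates 1, 2 and 3 and 2382, 2393 and 2219 in the untreated ones. All dox-treated libraries were below all untreated ones, and replicate 3 was the nearest to them (70.1 ± 28.8 against 188.0 ± 12.7 CPM, SD, n = 3, log2 fold change -1.50, adjusted p = 0.039, limma). The call was lost in the blocked fit (adjusted p = 0.084, limma) and with any library other than dox-treated replicate 3 left out, where the adjusted p was between 0.091 and 0.13 (limma).

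Enzymes that use bicarbonate or carbon dioxide were read from a list of 11 genes, of which 9 were in the table and tested. None was called by limma, 0 in either direction, with 1 of 9 at an unadjusted p under 0.05, against 29.2% of all genes tested, and a median log2 fold change of -0.02. That gene, *Cad*, encodes the enzyme that starts pyrimidine synthesis from bicarbonate, and averaged 485.9 ± 16.6 CPM with dox against 661.1 ± 73.9 CPM (SD, n = 3 each; log2 fold change -0.44, adjusted p = 0.079, limma). The next by p, *Pccb*, encodes a subunit of propionyl-CoA carboxylase (log2 fold change -0.35, adjusted p = 0.19, limma). The inositol trisphosphate receptors, calcium channels of which the type 1 channel binds the *Car8* product, were all listed and 0 of 3 were called (limma), with 2 at an unadjusted p under 0.05, against 29.2% of all genes tested. *Itpr1* had 1257, 1213 and 1186 reads in dox-treated replicates 1, 2 and 3 and 812, 675 and 683 in the untreated ones. The groups did not overlap, and the log2 fold change was 0.57 (adjusted p = 0.070, limma). Values for *Itpr2* and *Itpr3* were 0.74 (adjusted p = 0.088, limma) and 0.74 (adjusted p = 0.24, limma).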

How the data were processed

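RNA from sorted MEPs was sequenced on a GAIIx instrument. According to the study's methods, Cutadapt trimmed adapters, RSEM counted reads against Ensembl transcripts (NCBIM37), and limma served for normalization. The use of strand is not given in the sources used here. The values deposited by the authors are log2 CPM with 0.5 reads added, which yielded whole reads with a largest deviation of 6.6e-09. Replicates were kept as separate libraries in the limma fits and permutation tests, and reads of a group were pooled only for the *Car8* read ratio and its interval. Nothing says that replicates came from separate animals, so p-values measure the spread between these libraries only.

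The 12088 genes that reached 1 CPM in 3 or more libraries were fitted with limma (version 3.58.1, R 4.3.3), dox-treated against untreated, without a block, and p-values were adjusted by Benjamini-Hochberg over all of them at 0.05. Single values had a two-sided exact permutation test. Positions, exon lengths and coding sequences were those of GENCODE M1 on NCBIM37, and coding sequences were aligned through their translation with Biopython 1.88. Members and lists were chosen with earlier results of these data known. The genes named were the members, further family genes, the called genes of each list or, with none called, the 2 with the smallest p, and the nearest neighbours. *Itpr3* and *Chd7* were added outside this rule to complete short lists, and *Aqp1*, *Kit* and *Itga2b*, the most abundant markers of their lists, and the sums without them, after seeing the data. Likeness was the root mean square difference of centred log2 values over genes averaging 5 CPM or more. Replicates are numbered 1 to 3 in both groups. Blocking on that number was an alternative, beside others on weights, pseudocount, filter, scaling and single libraries.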

Additional observations from a re-analysis of the deposited data

How the results depend on the processing

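The direction of *Car1*, *Car2*, *Car5b*, *Car8* and *Car13* was the same under every alternative run for them. The counts over all genes (555 higher, 384 lower) became 909 and 747 under a trended prior variance, 2515 and 2601 with array quality weights, and 1273 and 939 at an adjusted p under 0.1. Without single libraries they ran from 92 to 1801 and from 36 to 1687. The members called higher, 2, were 1 with voom precision weights (*Car13*), 1 with these and the block (*Car8*, with *Car13* at an adjusted p of 0.071, limma), 1 with a minimum of 5 CPM, where *Car8* was not tested, and from 0 to 2 without single libraries. Members called lower, 0, were 2 with array quality weights and from 0 to 2 without single libraries. In the acid-base transport list, genes called higher, 0, were 1 with a trend, 5 with array quality weights, 1 with voom, 1 with a minimum of 5 CPM, 2 with summed library sizes, 2 after quantile normalization, 2 at a threshold of 0.1 and from 0 to 3 without single libraries, and genes called lower, 1, were 5 with array quality weights, 2 after quantile normalization, 2 at 0.1 and from 0 to 3 without single libraries. In the carboxylase list, genes called higher, 0, were 1 with array quality weights, and those called lower, 0, were 1 with a trend, 3 with array quality weights, 1 with voom, 1 at 0.1 and from 0 to 2 without single libraries. The cause was not tested. The log2 fold change of *Car12* (0.04) was -0.30 after quantile normalization and ran from -0.49 to 0.32 without single libraries, with -0.49 without dox-treated replicate 1 and -0.39 without untreated replicate 2. The difference in the *Car2* to *Car1* log2 ratio (0.03) ran from -0.0929 to 0.21 without single libraries, and was -0.03 without dox-treated replicate 1, -0.0929 without dox-treated replicate 2 and -0.06 without untreated replicate 3. Library sizes from summed reads moved the median of all genes from -0.03 to 0.08 on the log2 scale, and *Car1* and *Car2* then stood at -0.22 and -0.20.

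Under the replicate block 53 genes were called higher and 29 lower, including 0 members higher and 0 genes of the acid-base transport list lower. The centred profiles of libraries with a number in common had correlations across genes between -0.299 and 0.0184. For libraries with different numbers they ran from -0.204 to 0.238. With 3 libraries per group these values cannot show whether libraries of the same number were collected together, and the labels do not say. The depth of *Car5b* and *Car12*, with 76 and 75 reads in all, limits what could be seen for them.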

Other observations

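The patterns of *Car1*, *Car2*, *Car5b*, *Car8* and *Car13* over the 6 libraries were set beside those of all genes averaging 5 CPM or more by the root mean square difference of centred log2 values, as a description. Nearest to *Car1* were *Slc40a1*, the iron exporter ferroportin (0.127), and *Mospd1* (0.140), and *Car2* came at place 25 of 9986. *Slc40a1* had 1374, 1238 and 2881 reads in dox-treated replicates 1, 2 and 3 and 2140, 1813 and 1661 in the untreated ones. Its peak in dox-treated replicate 3 follows from its choice by likeness to *Car1*. Nearest to *Car2* were *Top2a*, the topoisomerase of dividing cells (0.0133), and *Usp15*, a deubiquitinase (0.0271). For *Top2a* the reads were 8106, 7510 and 14768 with dox and 11561, 11232 and 8553 without, in replicates 1, 2 and 3, and *Car1* came at place 2380 of that list.

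Nearest to *Car13* were *Ssfa2* (0.0354) and *Trim12a* (0.0453), and *Car1* and *Car2* came at places 9412 and 8585. Nearest to *Car8* were *Rapgef4*, an exchange factor activated by cyclic AMP (0.737), and *Aire*, the autoimmune regulator (0.804). *Rapgef4* had 354, 364 and 89 reads in dox-treated replicates 1, 2 and 3 against 5, 1 and 1 in untreated replicates 1, 2 and 3. That *Rapgef4* was almost silent without dox and lower in dox-treated replicate 3 follows from its choice by likeness to *Car8*. For *Car5b* the nearest were *Efha2* (0.130) and *Fzd6* (0.143). Lymphoid markers, 5 of 8 in the table, summed to between 7.82 and 23.5 CPM over the libraries, and 0 were called (limma), with 0 of 5 at an unadjusted p under 0.05.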
